A study of Mus musculus with 16 samples.

Results

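The fatty acid oxidation and peroxisome genes of mouse kidney were followed in 4 male mice that lack Pept2 (gene symbol Slc15a2), the proton-coupled transporter that recovers small peptides from the filtrate in the proximal tubule. The genes were chosen by symbol alone: acyl-CoA dehydrogenases, oxidases, synthetases and thioesterases, carnitine acyltransferases, the other enzymes of the beta-oxidation spiral, electron transfer flavoproteins, peroxins and Cyp4a hydroxylases. Of 45 such genes on the array, 40 had a value in both dye orientations for every animal, and these 40 are the members, of 6191 genes tested. The other 5 (Acaa2, Acsl4, Cpt1b, Pex16 and Pex5l) had values on 1 to 11 of 16 arrays and were not tested. Another 3 probes that also carry the symbol of a second gene were left out.

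Total RNA of the right kidney of each Pept2 knockout (Pept2-/-) male, 88 (±2) days old, was hybridised on spotted two-colour cDNA arrays against 1 RNA pool of 5 right kidneys of wild-type (Pept2+/+) mice. All animals came from an F4 generation of a Pept2+/- line on a mixed C57BL/6 and 129Sv background, and they were killed between 8 and 10 am. Each knockout mouse had 4 arrays, 2 in each dye orientation (knockout in channel 1 or in channel 2), so 16 arrays stand for 4 animals. The wild-type kidneys were never measured singly, so the tests against the pool leave out the spread between wild-type animals, and an error of the pool would enter every mouse alike.

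Fatty acids are the main fuel of the proximal tubule. Acyl-CoA synthetases activate them, carnitine acyltransferases carry long chains into mitochondria, and a spiral of dehydrogenation, hydration, a second oxidation and thiolysis shortens them, while acyl-CoA dehydrogenases pass electrons to the respiratory chain through electron transfer flavoprotein. Peroxisomes, assembled by peroxins, shorten very long and branched chains with acyl-CoA oxidases, and Cyp4a enzymes start omega-oxidation. Many of these genes are targets of the nuclear receptor PPARα, which binds DNA with RXR at direct repeats of the core motif AGGTCA.

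The deposited ratio has no stated numerator. As deposited, Slc15a2 lay below 0 on each of the 8 arrays that carried the knockout in channel 1 and above 0 on each of the 8 others, and the ratio was therefore read as channel 1 over channel 2 and turned to knockout over wild type. This direction is likely, not certain, and Slc15a2, which set it, is no independent evidence of it. Under the opposite reading every "higher" and "lower" below is exchanged. On this reading Slc15a2 stood at a log2 ratio of -2.51 ± 0.31 (SD, n = 4 mice), with -2.17, -2.74, -2.81 and -2.33 in mice 1 to 4. All values below are log2 ratios of knockout over the wild-type pool, the mean over 4 mice unless a mouse or array is named. They hold no level, so that the tissue could not be checked by the level of its markers, and in whole kidney fewer cells of a type and less RNA per cell cannot be told apart.

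Promoters of 3 members with small p against wild type, none of which passed the threshold, are shown. Each is the 300 bases around the gene start in RefSeq (GRCm38.p6), with any core motif AGGTCA, on either strand, in capitals. Acot3 had the smallest p of the members above the pool and Acox2 of those below it, and Acadm was the PPARα target with the smallest p below the pool. Acot3 lies at chr12:84051894-84052193 on the plus strand, Acadm at chr3:153944594-153944893 and Acox2 at chr14:8258970-8259269, both on the minus strand.
Acot3: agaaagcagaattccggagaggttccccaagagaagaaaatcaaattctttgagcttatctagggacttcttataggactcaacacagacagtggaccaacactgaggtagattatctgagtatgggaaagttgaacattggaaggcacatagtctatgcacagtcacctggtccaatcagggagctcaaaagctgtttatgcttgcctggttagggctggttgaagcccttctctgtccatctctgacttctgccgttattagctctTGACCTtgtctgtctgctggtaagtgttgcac
Acadm: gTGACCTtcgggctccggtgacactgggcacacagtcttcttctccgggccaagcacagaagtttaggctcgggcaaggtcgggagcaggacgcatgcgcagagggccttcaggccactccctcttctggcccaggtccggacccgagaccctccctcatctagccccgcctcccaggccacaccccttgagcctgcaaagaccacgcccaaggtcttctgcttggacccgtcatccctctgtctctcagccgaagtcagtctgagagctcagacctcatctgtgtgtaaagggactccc
Acox2: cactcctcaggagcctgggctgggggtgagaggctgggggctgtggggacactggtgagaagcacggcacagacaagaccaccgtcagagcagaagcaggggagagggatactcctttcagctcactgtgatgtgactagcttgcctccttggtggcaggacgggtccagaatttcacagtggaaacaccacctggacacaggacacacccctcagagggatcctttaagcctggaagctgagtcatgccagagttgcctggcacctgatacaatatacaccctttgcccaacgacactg

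The core motif lay in the Acot3 window at bases 269 to 274 and in the Acadm window at bases 2 to 7. Both copies were on the strand opposite to the gene, and the Acox2 window had none. Counted as bases before the gene start, the Acot3 copy lay at -18 to -23, past the start, and the Acadm copy at 249 to 244. Another Acot3 window, not shown, held the motif at bases 262 to 267. RefSeq promoters were matched for 34 of 40 members, and Acad9, Acot13, Crat, Cyp4a14, Decr1 and Pex19 had none in the table. Of the 34, 9 held the core motif in at least 1 window (26.5%), against 18.1% of 27025 genes. The full direct repeat spaced by 1 base, AGGTCANAGGTCA, was in none of the 37 member windows and in 13 of 32851 windows in all (0.0396%). A match of letters is a description of the window and not a binding site, and its relation to the ratios was not tested.

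The first comparison asked which members differed between knockout kidney and the wild-type pool. None of the 40 passed an adjusted p of 0.05 in limma, where 0.21% of all genes did. At an unadjusted p under 0.05 there were 8 members (20.0%), 4 higher and 4 lower, beside 16.8% of all genes (6.8% higher and 10.0% lower), so the members' share lay near the background. The median ratio of the members was -0.04, with 19 members above the pool and 21 below it. Over all genes it was -0.004, held near 0 by the centring of each array. All 4 mice were above the pool for 5 members (12.5%; 11.4% of all genes) and below it for 8 (20.0%; 14.3% of all genes). With the 16 arrays as measurements and the mouse as a random block, which counts technical arrays nearly as animals (correlation within a mouse 0.053), 6 members passed, where 6.48% of all genes did. For 38 of 40 members the 95% confidence interval lay within 1.5-fold of the pool in either direction, all but Cyp4a14 and Acox2. The interval holds only the spread between knockout mice, so it bounds the ratio to this pool and not to wild-type mice. Its share over all genes was not counted.

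**Figure D1:**
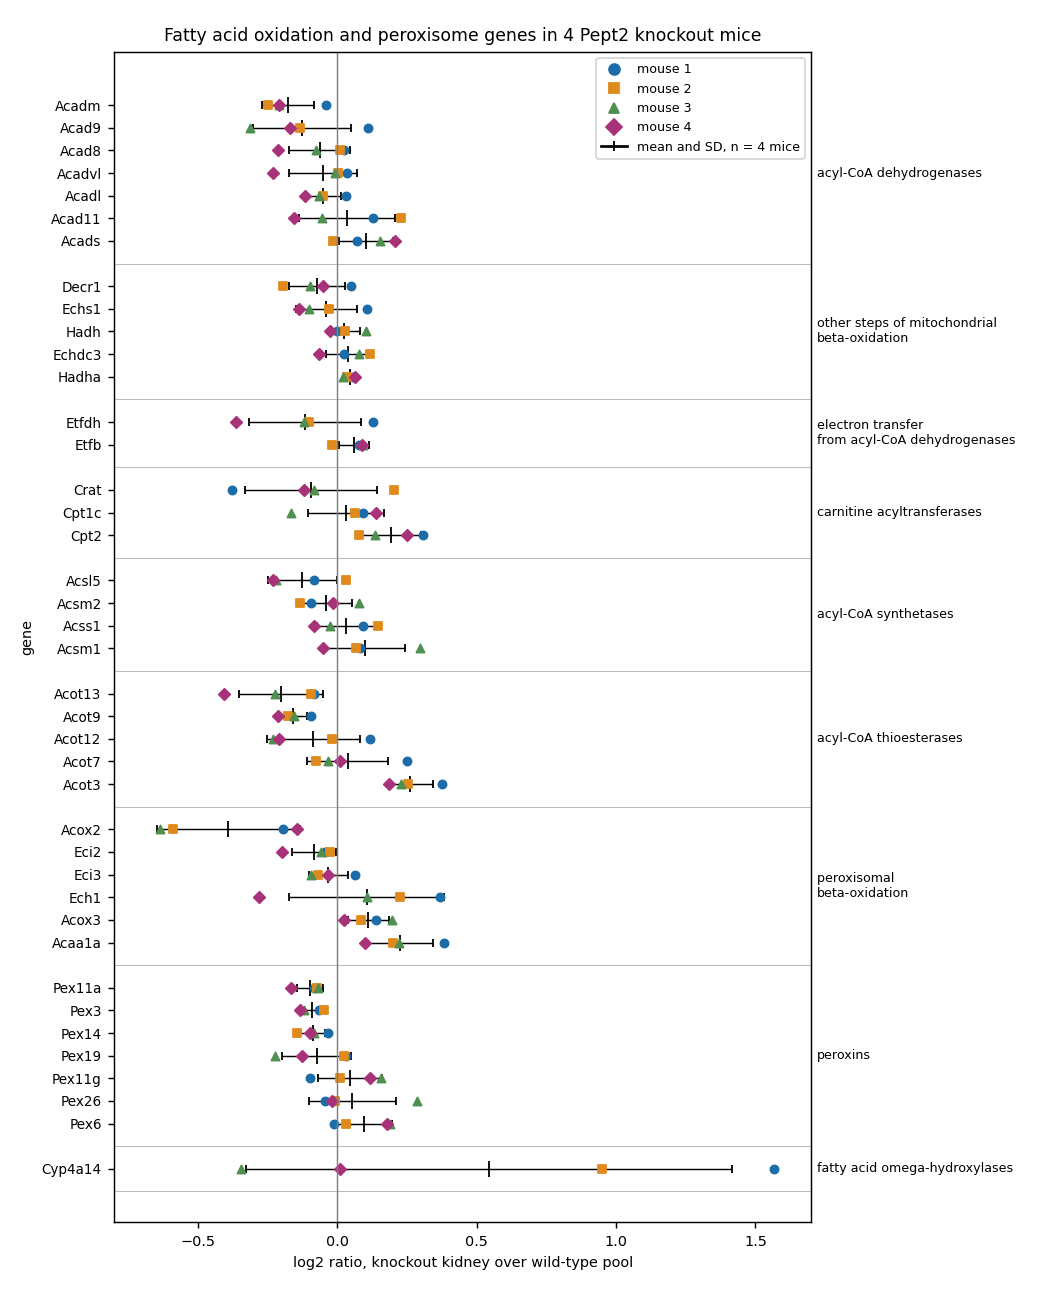
Log2 ratio of each of the 40 members (rows, ordered by role) in each of 4 knockout mice (coloured symbols), with the mean and SD over mice in black. Most members lie within 0.4 of the pool in every mouse, while Cyp4a14 reaches 1.56 in mouse 1 and Acox2 reaches -0.63 in mouse 3.

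Peroxisomal beta-oxidation held the members with the widest range of means. Acox2, the oxidase that acts on branched chains and bile acid side chains, stood at -0.19, -0.59, -0.63 and -0.14 in mice 1 to 4. All mice were below the pool, mice 2 and 3 by far more than mice 1 and 4. The mean was -0.39 ± 0.26 (SD, n = 4; 1.31-fold lower), with an adjusted p of 0.145 in limma. Acaa1a, the thiolase that ends each peroxisomal round, lay above the pool at 0.38, 0.20, 0.22 and 0.10 (mean 0.23 ± 0.12, adjusted p = 0.148). With knockout RNA in channel 1 its mean was 0.34 and in channel 2 it was 0.11, a difference that did not pass (adjusted p = 0.219). Cross-hybridisation from related thiolase genes was not tested. Acox3, a further branched-chain oxidase, was at 0.14, 0.08, 0.20 and 0.02 (adjusted p = 0.294), with its probes at 0.08 and 0.14. The enoyl-CoA isomerases Eci2 and Eci3 lay at -0.08 and -0.03, with Eci2 lowest in mouse 4 at -0.20, and spotted cDNA need not tell such close paralogs apart.

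Ech1, a dienoyl-CoA isomerase of peroxisomes and mitochondria, crossed the pool: it stood at 0.37, 0.23, 0.11 and -0.28 in mice 1 to 4. Mouse 4 was the one mouse below the pool, on all 4 of its arrays. The mean was 0.10 ± 0.28 (SD, n = 4) and did not pass against wild type (adjusted p = 0.572), with an interval from -0.11 to 0.32.

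Among the acyl-CoA thioesterases, which release free fatty acids from CoA, Acot3 had the smallest p of all members. This peroxisomal enzyme stood at 0.38, 0.25, 0.23 and 0.19 in mice 1 to 4, above the pool on all 16 arrays. The mean was 0.26 ± 0.08 (SD, n = 4; interval 0.15 to 0.37), with an adjusted p of 0.102, rank 34 of 6191 genes. Its probes stood at 0.24 and 0.28, and both were above the pool in all mice. Cross-hybridisation from related thioesterase genes was not tested. Acot13, a mitochondrial thioesterase, was at -0.08, -0.10, -0.22 and -0.41 (adjusted p = 0.185), and Acot9, another mitochondrial one, at -0.09, -0.18, -0.16 and -0.21 (adjusted p = 0.174). Both were below the pool in every mouse, and Acot9 varied the less between them (SD 0.05 against 0.15). Acot7 and Acot12 lay on both sides of the pool, at 0.04 ± 0.15 and -0.09 ± 0.17.

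The acyl-CoA dehydrogenases, which take the first step of the spiral for chains of different length, ranged from -0.18 to 0.10. Acadm, the medium-chain enzyme, stood at -0.04, -0.25, -0.21 and -0.21 in mice 1 to 4 (mean -0.18 ± 0.09, adjusted p = 0.174). Mouse 1 lay closest to the pool, and the probes parted there: one gave -0.17 and the other 0.09 in that mouse. The short-chain Acads was at 0.10 ± 0.10 and the long-chain Acadl and very-long-chain Acadvl were both at -0.05, with SDs of 0.06 and 0.12. Acad8, which acts in valine breakdown, lay at -0.06, and Acad11 at 0.04, with mice 1 and 2 above and mice 3 and 4 below the pool.

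Acad9, a dehydrogenase that also serves the assembly of respiratory complex I, stood at 0.11, -0.13, -0.31 and -0.17 in mice 1 to 4 (mean -0.13 ± 0.18, adjusted p = 0.364). It stood at 0.04 with knockout RNA in channel 1 and at -0.29 in channel 2, a difference that did not pass (adjusted p = 0.159). In every mouse both arrays of channel 2 were below both of channel 1.

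The other steps of mitochondrial beta-oxidation lay close to the pool. Hadha, the subunit of the trifunctional protein with hydratase and dehydrogenase activity, was at 0.06, 0.03, 0.02 and 0.06, with the lowest SD of all members (0.02) and an interval from -0.05 to 0.14. The short-chain hydroxyacyl-CoA dehydrogenase Hadh was at 0.03, the hydratase Echs1 at -0.04, the hydratase family member Echdc3 at 0.04 and the dienoyl-CoA reductase Decr1 at -0.07. Hadh stood at 0.18 with knockout RNA in channel 1 and at -0.13 in channel 2, which did not pass either (adjusted p = 0.159). Of the electron transfer genes, Etfb was at 0.06 ± 0.05. Etfdh, which hands the electrons to ubiquinone, was at 0.13, -0.10, -0.12 and -0.37, highest in mouse 1 and lowest in mouse 4 (mean -0.12 ± 0.20).

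Cpt2, which releases long-chain acyl groups from carnitine inside mitochondria, was above the pool in every mouse at 0.31, 0.08, 0.14 and 0.25 (mean 0.19 ± 0.11, adjusted p = 0.172). Crat, the carnitine acetyltransferase, ranged from -0.38 in mouse 1 to 0.20 in mouse 2. The low value rested on array 4 of mouse 1, at -1.33 against -0.07 and -0.05 on its other arrays with a value, and without it mouse 1 stood at -0.06. Cpt1c, the one gene of the Cpt1 family with a test, stood at 0.03 ± 0.14. Of the acyl-CoA synthetases, long-chain Acsl5 was at -0.08, 0.03, -0.22 and -0.23 (adjusted p = 0.306). The medium-chain Acsm1 was at 0.10 ± 0.15, with 0.30 in mouse 3, and Acss1, which activates acetate in mitochondria, at 0.03 ± 0.11. Acsm2 stood at -0.04, with probes on opposite sides of the pool (0.05 and -0.13).

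No peroxin passed, and their means spanned -0.10 to 0.10. Pex11a, which drives peroxisome division, was at -0.10 ± 0.05, the import receptor docking protein Pex14 at -0.09 ± 0.05 and Pex3, needed for membrane protein insertion, at -0.09 ± 0.04. All 3 were below the pool in every mouse, with adjusted p between 0.311 and 0.343. By dye orientation Pex3 stood at -0.27 in channel 1 and at 0.08 in channel 2 (adjusted p = 0.177 for the difference). The membrane protein receptor Pex19 was at -0.07, and Pex6, Pex26 and Pex11g were at 0.10, 0.05 and 0.05. The Pex26 value rested on array 4 of mouse 3, at 1.13 against 0.09 and -0.17 on its other arrays with a value, and without it the mean was -0.03.

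Over all genes, no dye difference passed an adjusted p of 0.05 in limma (0%), and 19.5% were at an unadjusted p under 0.05. Of the members 7 were (17.5%): Hadh, Acad9, Pex3, Decr1, Acaa1a, Acadvl and Ech1. A difference between orientations cancels in the mouse values, which average both.

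**Figure D2:**
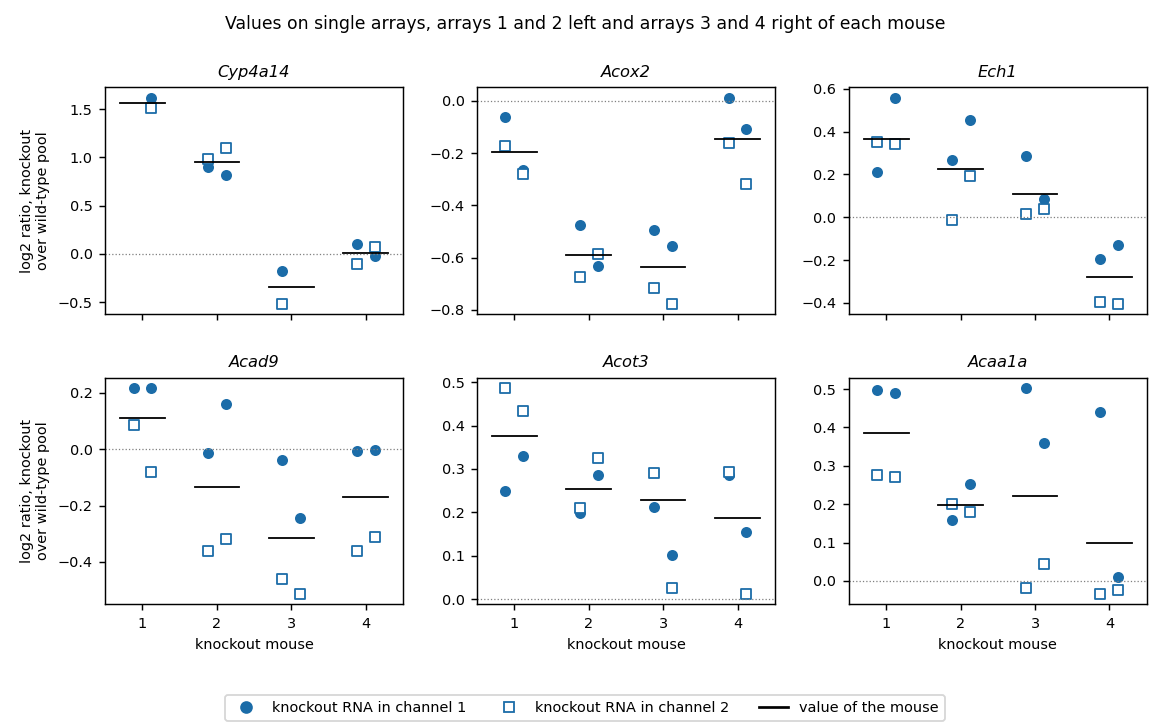
Log2 ratio of knockout over wild-type pool on single arrays for 6 members, by mouse, with filled circles for knockout RNA in channel 1, open squares for channel 2 and lines for the value of the mouse. Cyp4a14 separates mice 1 and 2 from mice 3 and 4 on every array with a value, while Acad9 separates the orientations within each mouse.

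The second comparison asked which members differed among the 4 knockout kidneys, in which the shared pool cancels. It passed for 4 of 40 members (10.0%), Cyp4a14, Acox2, Ech1 and Acad9, where 2.54% of all genes passed the moderated F test in limma. These 4 were among the genes that the choice of members named from the start, so the share is not independent of earlier results. The test takes arrays as replicates and so compares these 4 animals. The median SD of the members between mice was 0.11, beside 0.10 over all genes, and 4 members lay above the 95th percentile of SD over all genes (0.23): Cyp4a14, Ech1, Acox2 and Crat. Without array 4 of mouse 1 Crat had an SD of 0.15 and left that count, which was then 3.

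Cyp4a14, the inducible omega-hydroxylase, stood at 1.56, 0.95, -0.34 and 0.01 in mice 1 to 4, the second-widest spread of all genes (SD 0.87, percentile 99.98; adjusted p = 9.72e-06 between mice). In mouse 1 it was at 1.51 and 1.62 on arrays 3 and 4 and blank on arrays 1 and 2. Mouse 2 gave 0.99, 0.90, 1.09 and 0.82. In mouse 3 it was at -0.52 and -0.17 on arrays 1 and 2 and blank on the other two, and mouse 4 gave -0.10, 0.10, 0.07 and -0.02. The lowest array of mice 1 and 2 thus lay far above the highest of mice 3 and 4. Against wild type the mean was 0.55 (interval -0.06 to 1.15, adjusted p = 0.333). No other Cyp4a gene had a probe in the test, and cross-hybridisation from them was not tested.

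Acox2 followed another order. Mice 2 and 3 lay between -0.78 and -0.47 on their 8 arrays, and mice 1 and 4 between -0.32 and 0.01, so the arrays of these pairs did not overlap (adjusted p = 0.00287 between mice). Ech1 set mouse 4 apart, with arrays from -0.40 to -0.13, while the 12 arrays of the other mice ran from -0.01 to 0.56 (adjusted p = 0.00383). Without mouse 4 the mice did not differ in Ech1 (adjusted p = 0.412). Acad9 was the weakest call, with an adjusted p of 0.0438, and mouse 1 was the one mouse above the pool. Its call was also lost when the probe filter asked for 1 value per mouse (adjusted p = 0.0680) or a gene was its probe with the most values (0.0537), and without any 1 of the mice, at an adjusted p from 0.0532 without mouse 4 to 0.570 without mouse 1. Cyp4a14 and Acox2 passed whichever mouse was left out.

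**Figure D3:**
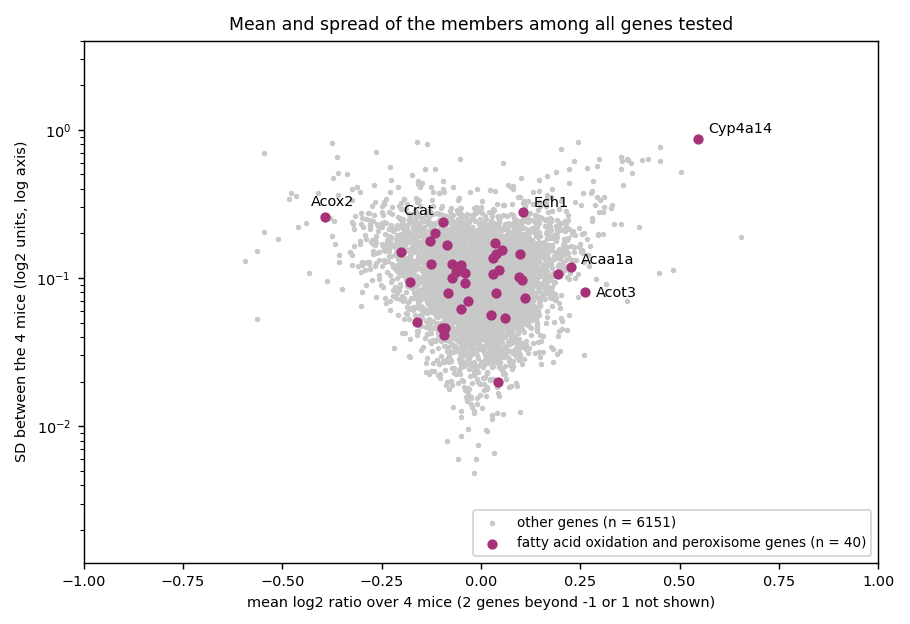
SD between the 4 mice (log axis) against the mean log2 ratio of knockout over wild-type pool for 40 members (purple) and 6151 other genes (grey, 2 of them beyond the axis). Cyp4a14 stands apart at an SD of 0.87, Acot3 pairs a mean of 0.26 with an SD of 0.08, and most members lie within the cloud of all genes.

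High values were most often in mouse 1 and low values in mouse 4. Of 40 members, 20 (50.0%) had their highest value in mouse 1, against 23.3% of all genes, and 20 (50.0%) had their lowest value in mouse 4, against 23.1% of all genes. The median of the members was 0.04, -0.002, -0.06 and -0.09 in mice 1 to 4. That of all genes lay between -0.006 and 0.0001 in every mouse, held near 0 by the centring of each array. The acyl-CoA dehydrogenases went from 0.03 in mouse 1 to -0.17 in mouse 4 and the thioesterases from 0.12 to -0.21. Peroxisomal beta-oxidation went from 0.10 to -0.09, while the peroxins, lowest in mouse 4 at -0.10, were highest in mouse 2 at -0.007. The 3 carnitine acyltransferases had medians of 0.09, 0.08, -0.08 and 0.14, highest in mouse 4. These counts are a description with no test, since the members of a mouse share its arrays.

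**Figure D4:**
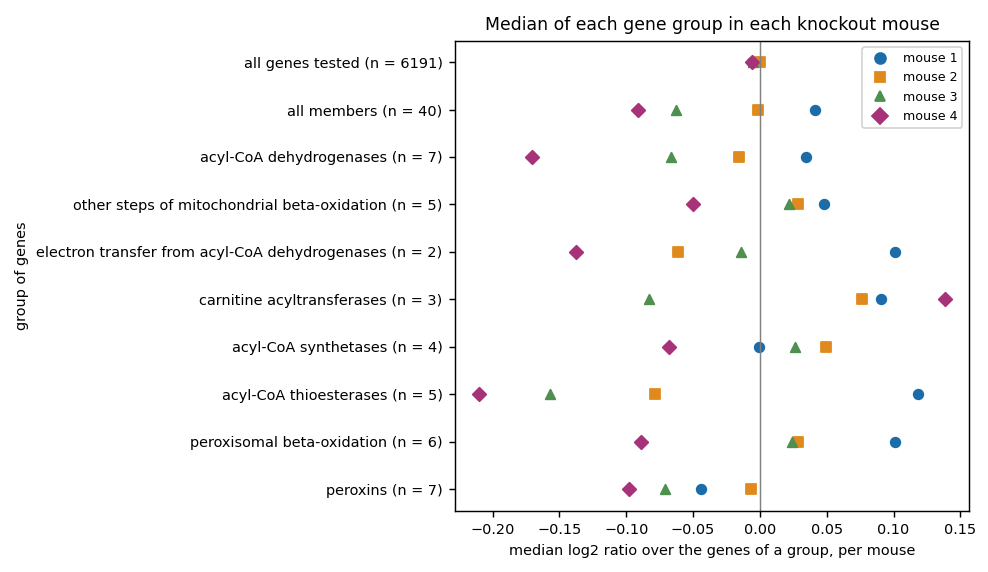
Median log2 ratio of knockout over wild-type pool for all genes, all members and 8 role groups (rows), 1 symbol per mouse. All members spread from -0.09 in mouse 4 to 0.04 in mouse 1. The median of all genes, between -0.006 and 0.0001, is held near 0 by the centring of each array.

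Proximal tubule markers, whose cells carry much of the kidney's fatty acid oxidation, had their highest median in mouse 3 and their lowest in mouse 2. Of 21 markers listed, 12 were measured, 7 above and 5 below the pool, and their median was 0.04, -0.005, 0.08 and 0.01 in mice 1 to 4. Of these 12, Slc22a8 alone passed against wild type, at 0.48 (adjusted p = 0.0149 in limma). Endothelial (6 of 11 measured) and podocyte markers (2 of 6 measured) all lay below the pool, and leukocyte markers lay on both sides. Collecting duct markers (10 of 17 measured, 8 above the pool) had medians of 0.11, 0.04, 0.08 and 0.03, highest in mouse 1 and lowest in mouse 4. The single markers differed in their order over the mice. Aqp2 stood at 0.13, 0.21, 0.28 and 0.46, and Scnn1a and Hsd11b2 were also highest in mouse 4. Gata3, Slc4a1 and Atp6v1g3 were lowest in that mouse. Of these 10, Foxi1, a factor of intercalated cells, differed between mice at 0.41, 0.29, -0.40 and -0.21 (adjusted p = 0.000741), with mice 1 and 2 above mice 3 and 4 as in Cyp4a14. Krt18 differed between mice too, in another order, at 0.19, -0.16, 0.31 and 0.20 (adjusted p = 0.0308 in the F test). Adipose markers (3 of 10 measured) had medians between -0.17 and -0.03 by mouse, with single values from -0.47 (Fabp4, mouse 4) to 0.34 (Fabp4, mouse 2). The seminal vesicle gene Svs5 stood at 0.21, -0.09, 4.94 and 1.09 (adjusted p = 2.2e-05 between mice in the F test). It was highest in mice 3 and 4, where Cyp4a14 was lowest, and was the 1 of 8 markers of that gland with a test. Umod, of the loop of Henle, differed between mice at -0.14, -0.33, 0.19 and 0.27 (adjusted p = 0.0125), lower in mice 1 and 2. The fibroblast marker Col1a1 did so at -0.17, 0.21, -0.23 and 0.04 (adjusted p = 0.0420). The liver marker Serpina1b did so at -0.25, -0.31, -1.58 and -0.04 (adjusted p = 2.13e-06). The part of these markers in the values of the members was not tested. The arrays also differed in how many probes had a value, from 10134 to 18400 of 20205.

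Of 58 genes listed as PPARα targets 27 were measured, 18 of them members. None passed against wild type. Of these 27 genes, 14 were above and 13 below the pool with a median of 0.02, and 6 higher (22.2%) and 2 lower (7.41%) were at an unadjusted p under 0.05, beside 6.8% and 10.0% of all genes. The highest value lay in mouse 1 for 14 of 27 (51.9%). Among the 9 that are no members, Plin2, which coats lipid droplets, differed between mice at -0.34, 0.28, -0.73 and -0.70 (adjusted p = 3.28e-06), high in mouse 2 alone. Txnip, a regulator of glucose uptake, stood at -0.30, -0.62, 0.38 and 0.15 (adjusted p = 2.95e-06), lower in mice 1 and 2 and higher in mice 3 and 4. Catalase (Cat), which removes the peroxide made by the oxidases, was at 0.31, 0.11, 0.19 and 0.05, above the pool in every mouse (mean 0.17, adjusted p = 0.190), with 0.30 in channel 1 and 0.04 in channel 2. Slc27a1, a fatty acid transporter, and Gpd1, a glycerol phosphate dehydrogenase, both stood at 0.15 and were above the pool in every mouse (adjusted p = 0.185 and 0.219). By orientation Slc27a1 turned, at -0.01 with knockout RNA in channel 1 and 0.31 in channel 2, and Gpd1 was at 0.24 and 0.06.

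Of 48 other peroxisomal genes listed 26 were measured, with a median of -0.04. None passed against wild type, and 1 higher (3.85%) and 6 lower (23.1%) were at an unadjusted p under 0.05, beside 6.8% and 10.0% of all genes. The 1 higher was Cat, which like Slc27a2 is also listed as a PPARα target. Nudt19, a peroxisomal CoA hydrolase, was at -0.24 and the mevalonate pathway kinase Pmvk at -0.23 (adjusted p = 0.161 and 0.173). Ephx2, soluble epoxide hydrolase, stood at -0.14. Differences between mice passed for 3 of the 26 (11.5%), beside 2.54% of all genes. Far1, which makes fatty alcohols for ether lipids, stood at 0.13, -0.05, -0.70 and -0.63 (adjusted p = 0.000605). Scp2, the peroxisomal thiolase and sterol carrier, stood at 0.01, -0.02, -0.34 and -0.40 (adjusted p = 0.0155). Idh1, a source of NADPH, stood at 0.16, 0.28, -0.06 and -0.14 (adjusted p = 0.0305). In all 3, as in Cyp4a14, mice 1 and 2 lay above mice 3 and 4. This order was described after the values were seen, and its share over all genes was not counted. Of other genes named as differing between mice, Ech1, Acad9, Plin2 and Foxi1 had it as well. Acox2, Txnip, Ppard, Fabp4, Krt18, Svs5, Umod, Col1a1 and Serpina1b did not.

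Of 51 genes listed for fatty acid uptake, ketone metabolism, related acyl-CoA pathways and regulation 30 were measured, with a median of -0.01. Of these, 7 were higher (23.3%) and 2 lower (6.67%) at an unadjusted p under 0.05, beside 6.8% and 10.0% of all genes. Angptl4, Plin2, Slc22a5, Slc27a1 and Slc27a2 are also listed as PPARα targets, so the shares of the lists are not independent. Bdh1, the ketone body dehydrogenase, was at 0.30, 0.14, 0.33 and 0.12 (mean 0.23, adjusted p = 0.148). This rested on 1 of its 2 probes, at 0.42, while the other stood at 0.03 (adjusted p = 0.770 with that probe alone). Mgll, monoglyceride lipase, was at 0.21, 0.16, 0.19 and 0.15, with an SD of 0.03 (adjusted p = 0.148). Lpl, lipoprotein lipase, was at -0.20, -0.22, -0.33 and -0.17 (adjusted p = 0.117), and Bckdha, of branched-chain keto acid breakdown, at 0.19 (adjusted p = 0.185). All mice were on one side of the pool for Bdh1, Mgll and Lpl, and no gene of this list passed over all genes. The receptor gene Ppard and the fatty acid binding protein gene Fabp4 differed between mice, as did Plin2, 3 of 30 (10.0%). Ppard stood at -0.38, 0.19, -0.34 and 0.14 (adjusted p = 0.0129), and Fabp4, an adipose marker, at -0.11, 0.34, 0.02 and -0.47 (adjusted p = 0.0108).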

How the data were processed

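Per the labels, Cy3 and Cy5 were coupled indirectly, a GenePix 4000A scanner and GenePix Pro 3.0 software were used, and the authors scaled background-subtracted mean intensities to a median ratio of 1. The deposited table holds 1 log2 ratio per probe and array. The base was worked out from distances between repeated values, of which 45.6% of 720 equalled the log2 of a ratio of integers no larger than 20 (tolerance 2e-06), and 0 did for natural or decimal logarithms. The filter behind blank cells and the intensities were not used here.

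Arrays were median-centred, and the 2 orientation means of a mouse were averaged. Probes with a value in each orientation of every mouse and with 1 gene symbol were used (7121 probes), and a gene was their mean. Symbols were matched by gene identifier to GRCm38.p6, which changed none. Ratios were tested against 0, two-sided, with limma 3.58.1 in R 4.3.3 over all 6191 genes (Benjamini-Hochberg, threshold 0.05). Mice were compared by a moderated F test on arrays with a term for orientation, and orientations by their difference per mouse. The tests were tried on simulated data. Labels do not say whether arrays of a mouse are separate extractions, and arrays count as technical replicates.

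Genes were named by rule: those listed in the choice of members, those past a test, the up to 3 smallest p per role, the 10 largest SDs and the up to 4 smallest p per pathway list. The remaining members, and list genes that differ between mice, were added after their values were seen. Protein sequences were not analysed here. The members, roles and lists were chosen with earlier results of these data known. Alternatives covered centring, blank cells, probes per gene, orientation, arrays, error model, each mouse left out and, added after seeing the data, single array values.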

Additional observations from a re-analysis of the deposited data

Results flagged for a closer look

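In 4 of the 40 members 1 mouse lay far from the other mice by Dixon's criterion, which chance meets in about 1 group in 20 of normally distributed values. The criterion was applied to the members only, so its share over all genes on these arrays is not known. Pex26 was at 0.29 in mouse 3, while the others lay from -0.04 to -0.007. It rested on array 4 of that mouse (1.13), without which mouse 3 stood at -0.04 and no mouse stood apart. Pex11a stood at -0.17 in mouse 4 and Acadvl at -0.23 in mouse 4. Etfb stood at -0.021 in mouse 2, with the other mice between 0.08 and 0.09.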

How the results depend on the processing

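No member passed against wild type in 15 of the 16 alternatives, and 6 did (Acaa1a, Acadm, Acot3, Acot9, Acox2 and Cpt2) with 16 arrays and the mouse as a random block. The members that differed between mice numbered 3 or 4 under other filters and probe rules, and between 2 and 3 with each mouse left out, fewest without mouse 4. The median of the members was 0.030 with knockout RNA in channel 1 only, against -0.033 in channel 2 only. Some values changed sign, none of them called. With channel 1 only, Acad9 stood at 0.036, Acsm2 at 0.036, Pex14 at 0.016 and Slc27a1 at -0.014. With channel 2 only, Crat stood at 0.0016, Decr1 at 0.045, Echdc3 at -0.029, Pex3 at 0.084 and Pex26 at -0.037. On arrays 1 and 2, Echdc3 stood at -0.027 and Acad11 at -0.029. In an alternative chosen after seeing the data, 2 array values (Crat and Pex26) more than 1 from the other array of the same mouse and orientation were left out, and Pex26 stood at -0.028. Over the mice left out in turn, Acad11 ranged from -0.028 to 0.099, Pex26 from -0.023 to 0.087 and Cpt1c from -0.0047 to 0.097. The cause of these changes was not tested. Of 604 single-gene ratios under an alternative, 576 kept their direction and side of the threshold, and 13 passed with the random block only. Signal over background could not be examined without intensities, and 4 animals limit what each test can show.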
